A study of Mus musculus with 8 samples.

Results

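The insulin and secretory granule genes Ins1, Ins2, Iapp, Chga, Chgb, Scg2, Scg3, Scg5, Pcsk1 and Pcsk2 were examined for open chromatin in MIN6 cells with and without Klf4 misexpression. These 10 of 21883 protein-coding genes on chromosomes 1 to 19, X and Y were chosen by name. Every ATAC-seq peak that touched the gene body or the 25 kb on either side of it, on the GRCm38 map, was taken as a peak of that gene. This gave 98 of the 100099 peaks of the empty vector list and 102 of the 128538 peaks of the Klf4 list.

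Beta cells pack insulin into dense-core granules. Proinsulin is cut by the prohormone convertases PC1/3 and PC2, the products of Pcsk1 and Pcsk2, while granins aggregate and help to load and shape the granule. The insulin genes and their processing enzymes are among the most active genes of a beta cell, and their control regions are bound by homeodomain, MAF and basic helix-loop-helix factors. Klf4 is a zinc finger factor of the Kruppel-like family, whose members recognise CACCC boxes and related GC-rich sequence, and it is best known from stem cells and epithelia.

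MIN6 is an established mouse insulinoma line, labelled wild type in all samples, and was transfected for 48 hours with pcDNA 3 empty vector or with pGloMyc-Klf4, 4 biological replicates each. ATAC-seq measures where a transposase can cut chromatin, over all cells of a dish, so fewer cells with an open site and less opening per cell cannot be told apart. The share of cells that took up plasmid is not given in the sources used here. The deposited values are 1 merged peak list per plasmid: no value has a replicate spread, no test between plasmids was possible, and read depth is unknown. Of beta cell markers with a transcription start in the gene table, 6 of 7 (Ins1, Iapp, Pdx1, Nkx6-1, Nkx2-2 and G6pc2, not Slc2a2) had that start under a peak in both lists, against 1 of 5 markers of other islet cells, Gcg. Over all 21262 starts of protein-coding genes, 56.5% were under a peak in both lists. Among 5 acinar markers the start of none was under an empty vector peak and that of Ptf1a was under a Klf4 peak. The start of 1 of 2 leukocyte markers, Cd68, and of 0 of 2 fibroblast markers was under a peak in both lists, and the 2 endothelial markers had no start in the table. Peaks over gene bodies set the classes apart less. With empty vector and Klf4 they lay over 10 and 10 of 10 beta cell markers, and 2 and 3 of 5 other islet markers. For acinar markers it was 2 and 3 of 5, fibroblast 3 and 3 of 3, leukocyte 2 and 2 of 2, and endothelial 1 and 2 of 2.

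The RefSeq promoter table (GRCm38.p6) held 9 of the 10 genes, all but Ins2. Of its sequences 6 are shown, the 250 bases before the transcription start read 5′ to 3′ along the gene. Ins1, Chgb and Scg3 had the strongest start peaks of the empty vector list, and Pcsk2, Scg2 and Pcsk1 were added after the data had been seen. Capitals mark CACCC, a KLF-type motif, and TGACG, part of the cAMP response element, on either strand; the motifs overlap near the end of the Pcsk2 sequence.
Ins1 (chr19:52264047-52264296, plus strand, insulin): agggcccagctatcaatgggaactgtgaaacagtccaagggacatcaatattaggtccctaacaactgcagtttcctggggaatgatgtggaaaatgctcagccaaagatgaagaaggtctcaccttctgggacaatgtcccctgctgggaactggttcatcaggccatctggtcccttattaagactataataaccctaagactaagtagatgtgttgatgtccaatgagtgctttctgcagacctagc
Chgb (chr2:132781392-132781641, plus strand, the start with the highest −log10 q among the members): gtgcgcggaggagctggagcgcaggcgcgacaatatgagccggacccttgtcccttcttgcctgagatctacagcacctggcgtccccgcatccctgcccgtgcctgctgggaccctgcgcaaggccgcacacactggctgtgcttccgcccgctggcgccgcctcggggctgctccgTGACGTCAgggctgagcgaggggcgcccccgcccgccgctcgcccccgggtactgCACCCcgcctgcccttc
Scg3 (chr9:75684057-75684306, minus strand, the next highest): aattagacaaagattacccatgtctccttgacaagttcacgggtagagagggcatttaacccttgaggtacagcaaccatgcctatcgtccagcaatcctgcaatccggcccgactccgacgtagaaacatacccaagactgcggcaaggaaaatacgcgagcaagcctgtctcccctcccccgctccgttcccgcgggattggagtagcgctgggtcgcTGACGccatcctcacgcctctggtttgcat
Pcsk2 (chr2:143545883-143546132, plus strand, inside the start peaks of both lists): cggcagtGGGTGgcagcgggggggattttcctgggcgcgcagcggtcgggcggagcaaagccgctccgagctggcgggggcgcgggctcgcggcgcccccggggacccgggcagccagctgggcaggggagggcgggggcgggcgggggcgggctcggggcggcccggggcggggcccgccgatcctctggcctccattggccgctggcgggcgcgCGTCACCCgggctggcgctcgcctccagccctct
Scg2 (chr1:79440027-79440276, minus strand, with the full palindrome): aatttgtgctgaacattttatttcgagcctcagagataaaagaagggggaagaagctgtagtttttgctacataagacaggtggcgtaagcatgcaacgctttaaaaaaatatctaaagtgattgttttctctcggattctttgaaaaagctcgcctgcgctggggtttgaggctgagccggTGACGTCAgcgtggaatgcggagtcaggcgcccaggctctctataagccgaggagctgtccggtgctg
Pcsk1 (chr13:75089607-75089856, plus strand, with the full palindrome): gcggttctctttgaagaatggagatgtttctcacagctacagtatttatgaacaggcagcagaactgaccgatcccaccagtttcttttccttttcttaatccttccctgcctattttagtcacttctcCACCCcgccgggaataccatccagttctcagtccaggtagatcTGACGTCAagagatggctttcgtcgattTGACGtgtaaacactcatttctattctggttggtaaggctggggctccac

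TGACG was found in 7 of the 9 promoters, all but those of Ins1 and Iapp, against 17.8% of all 32851 promoters in the table. Its full palindrome TGACGTCA, a motif added after the sequences had been seen, stood in Chgb, Scg2 and Pcsk1 and in 1.55% of all promoters, and each palindrome counts as 2 of the 11 TGACG matches. CACCC was found in 6 of 9 promoters, all but those of Ins1, Scg2 and Scg3, against 52.0% of all. The longer KLF-type motif CCNCNCCC, which can overlap CACCC, was in 5 of 9 against 45.9%, with 6 matches at Pcsk2 alone. Of the beta cell type motifs, homeodomain TAAT was in 6 of 9 against 54.9%, with 5 matches at Iapp and 3 at Ins1. The E-box CANNTG was in 7 of 9 against 66.2%, and the MAF-type part TGCTGA in 1 of 9, Scg2, against 16.1%. The promoters ranged from 42.8% G and C at Iapp to 82.4% at Pcsk2, where the median of all was 52.4%. The motif counts are letter matches and no measure of binding. The values over all promoters also cover genes that are not protein-coding, unlike the 9, and 21262 starts were of protein-coding genes.

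The first question was whether the granule genes kept their accessible starts. All 9 genes with a mapped start had it under a peak in both lists, where 57.3% of 21262 starts of protein-coding genes were under an empty vector peak, 63.3% under a Klf4 peak and 56.5% under both. The −log10 q of these start peaks, the peak caller's own measure of confidence within a list, ran from 19.4 (Chga) to 170 (Chgb) with the empty vector and from 18.6 (Chga) to 151 (Chgb) with Klf4. The start peak was the strongest peak of its window for 4 of 9 genes in the empty vector list and 5 of 9 in the Klf4 list. These −log10 q values and the fold enrichments below are the authors' and are not on a common scale between lists, so they are given side by side and not compared.

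**Figure D1:**
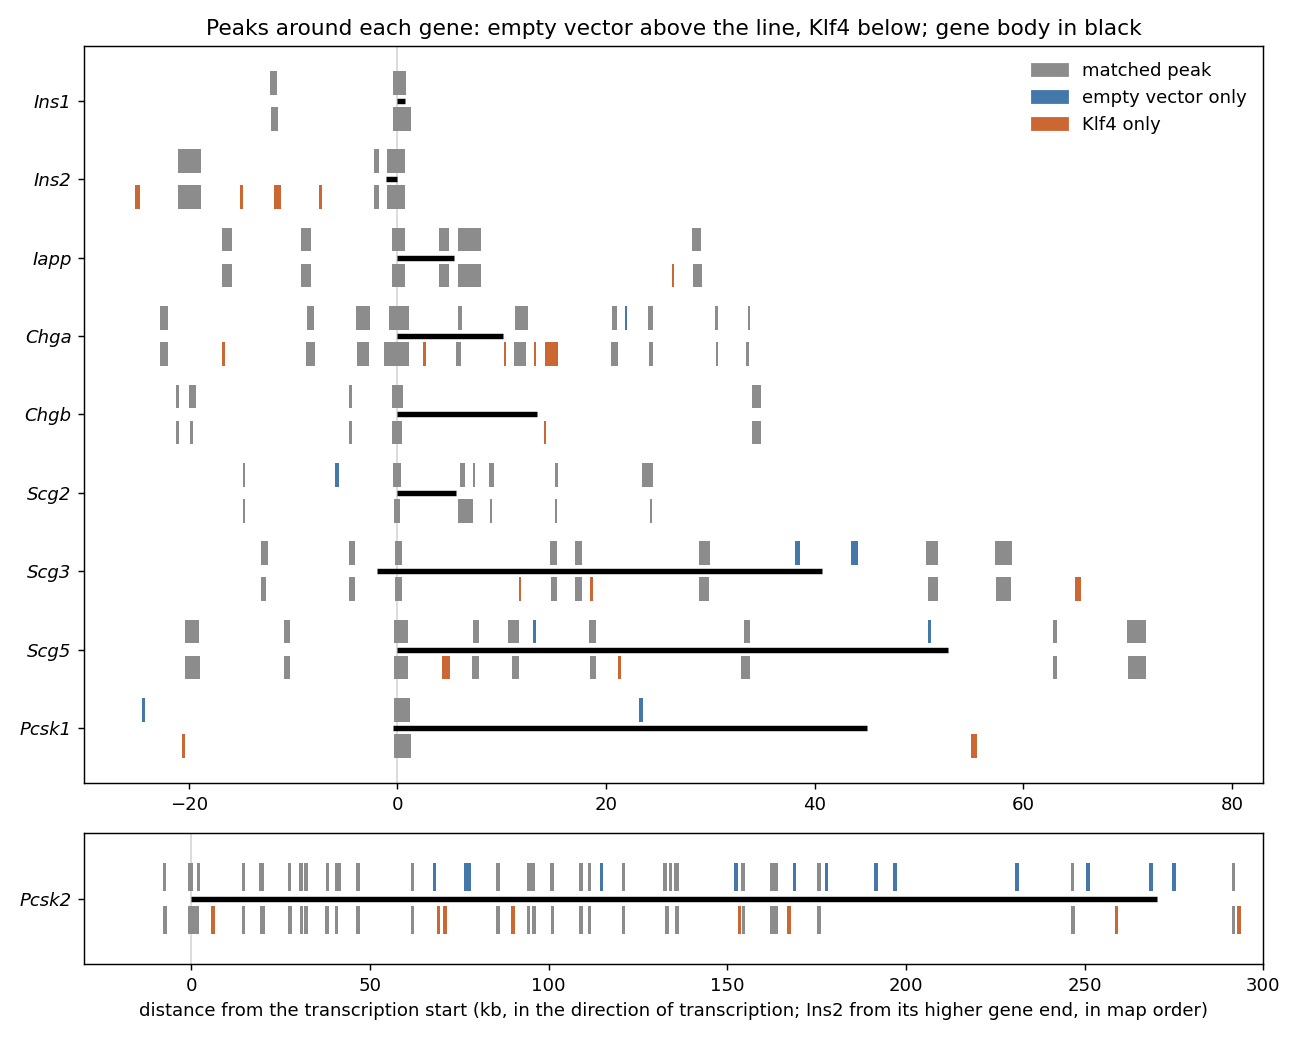
Peaks in the window of each gene by distance from the transcription start (kb), with empty vector peaks above and Klf4 peaks below the gene body (black). Gray peaks overlap a peak of the other list and coloured ones do not; peaks under 0.25 kb (under 1 kb for Pcsk2, in its own panel) are drawn at that width. Ins2, whose start was not in the table, is drawn in map order from its higher end. All 9 mapped starts carry gray peaks in both rows.

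Of the 98 empty vector peaks, 20 (20.4%, 95% Wilson interval 13.6 to 29.4%) had no overlapping Klf4 peak and are called lost. The background, over 77002 empty vector peaks in windows of all protein-coding genes, was 17.6%. Of the 102 Klf4 peaks, 26 (25.5%, interval 18.0 to 34.7%) had no overlapping empty vector peak and are called gained, where the background over 100175 Klf4 peaks was 36.6%. These intervals describe counting error alone and treat peaks as independent, which neighbours are not. Thus the lost share lay near the background and the gained share below it, with the background value just outside the interval. Pcsk2, with the longest gene body, held 39 and 34 of these peaks. Without it 8 of 59 empty vector peaks (13.6%, interval 7.03 to 24.5%) were lost and 18 of 68 Klf4 peaks (26.5%, interval 17.4 to 38.0%) gained, and this interval includes 36.6%.

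Lost and gained peaks were mostly weak. Lost peaks had a median −log10 q of 1.66 and matched empty vector peaks one of 13.9. Gained peaks had a median of 2.77 and matched Klf4 peaks one of 12.8. Over all protein-coding windows, the medians were 2.63 for lost and 4.83 for gained peaks. Of the empty vector peaks that reached a −log10 q of 10, 0 of 44 were lost, which allows a share of up to 6.82% (3 counts of the total, the limit used for every count of 0 in place of a Wilson interval), where 1.12% were lost over all windows. Among such Klf4 peaks 1 of 40 (2.50%, interval 0.443 to 12.9%) was gained, where 17.2% were gained over all windows. At −log10 q of at least 5, 3 of 58 empty vector peaks (5.17%, interval 1.77 to 14.1%) were lost, where the share over all windows was 4.76%. At the same limit 7 of 57 Klf4 peaks (12.3%, interval 6.08 to 23.2%) were gained, where it was 26.5%. The limit of 10 was chosen after the data had been seen. At 20, 0 of 33 empty vector and 0 of 31 Klf4 peaks were unmatched, where the shares over all windows were 0.124% and 6.75%. In the top 20000 peaks of each list it was 0 of 27 and 0 of 25, against 0.023% and 2.88%. Among peaks of 500 bp or wider, 8.33% of 60 were lost and 10.7% of 56 gained, against 4.68% and 22.5%. When 50% of both peaks had to overlap, 33.7% of the 98 were lost and 36.3% of the 102 gained, against 31.7% and 47.5%.

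**Figure D2:**
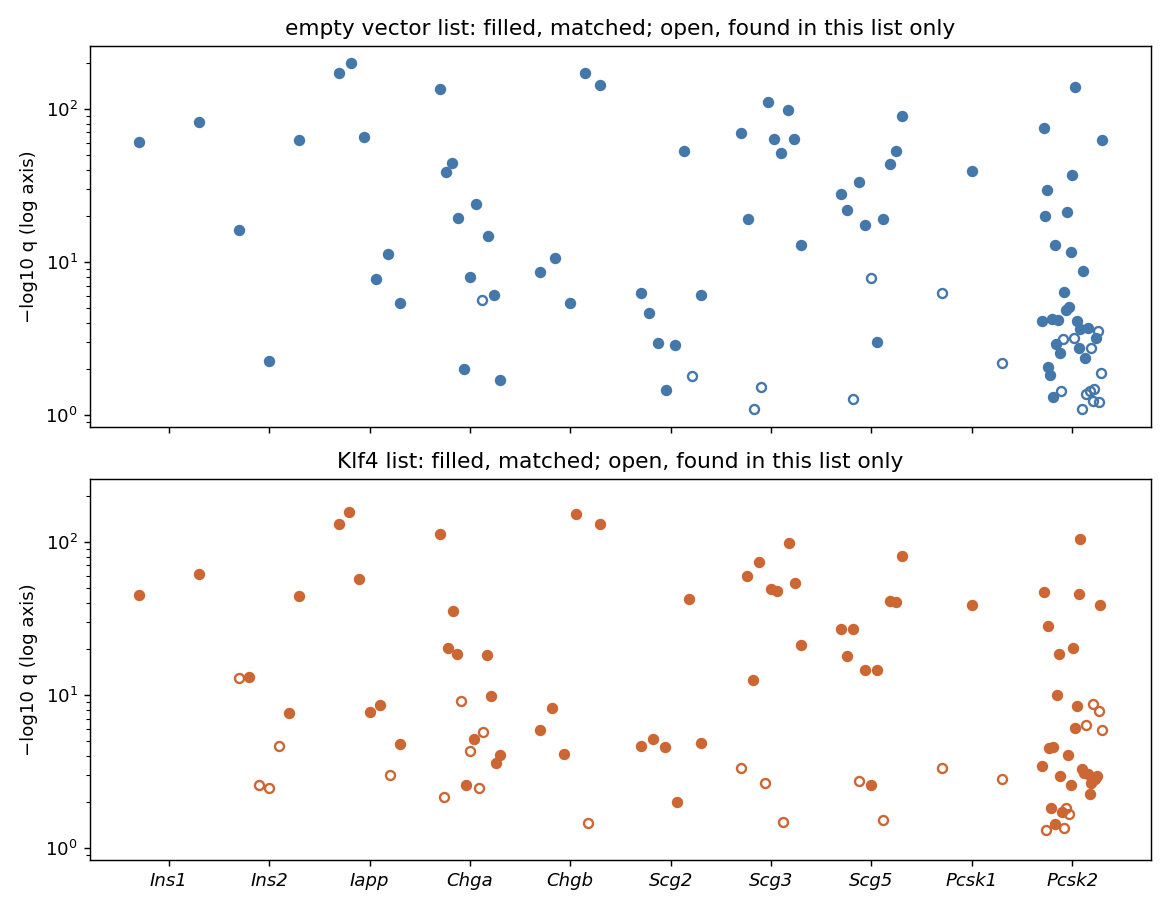
−log10 q (log axis) of every peak in the window of each gene, ordered by position within a gene, for the empty vector list (top) and the Klf4 list (bottom); filled points are matched peaks and open points are found in that list only. Above a −log10 q of 10 every empty vector point is filled, and the 1 open Klf4 point there is in the Ins2 window, at 12.9.

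The length covered by peaks was compared for each gene as log2 of Klf4 over empty vector, with 500 bp added to both lengths. Of the members 6 were above 0 and 4 below, with a median of 0.03, where the median of the 19282 protein-coding genes with a peak in their window was 0.28 and 77.0% of them were above 0. No member was 1.5-fold longer with Klf4, as 26.1% of these genes were, and none was 1.5-fold shorter, as 1.73% were. By the limit used above for a count of 0, the 10 members are too few to set either count apart from these shares. The members ran from −0.39 at Pcsk2 to 0.42 at Ins2. The median without Pcsk2 was 0.04. Where a limit on strength or width is named with a ratio below, it was put on both lists, so a peak can drop out of one list while its partner stays in the other; the −log10 q values of the lists share no common scale.

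**Figure D3:**
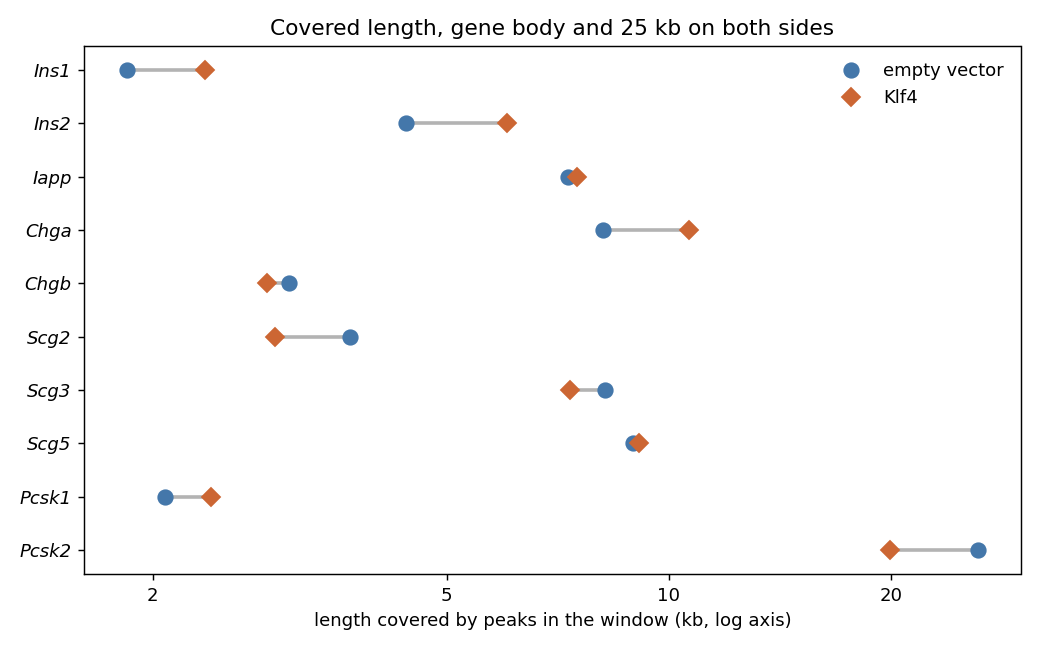
Length covered by peaks in the window of each gene (kb, log axis), for the empty vector (circle) and Klf4 (diamond) lists, 1 value each. Ins2, Chga and Ins1 have the Klf4 point to the right, and Pcsk2 and Scg2 have it to the left.

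**Figure D4:**
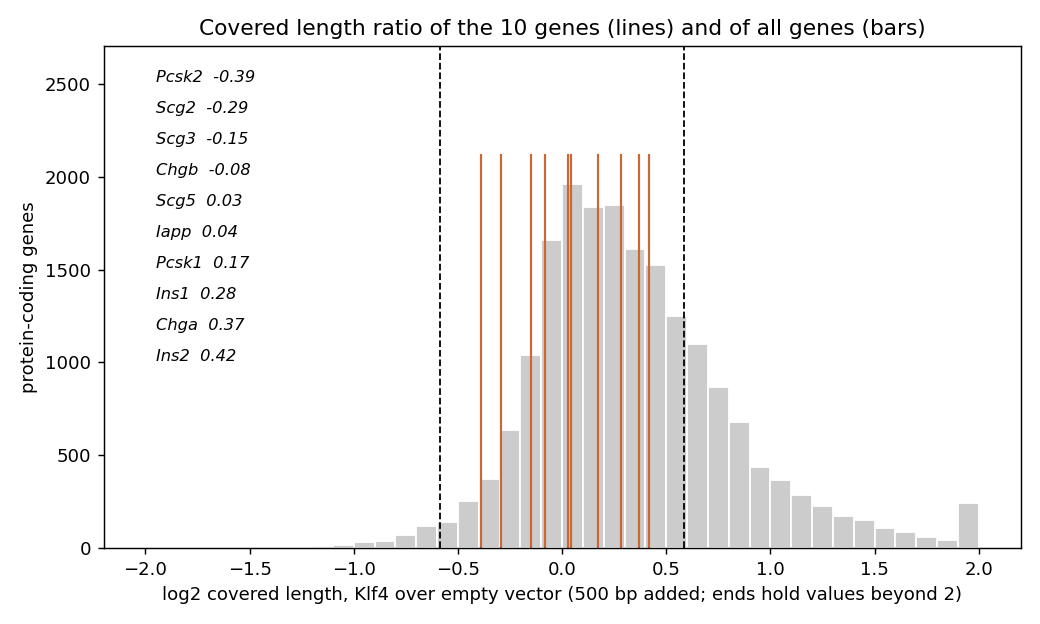
Number of protein-coding genes (bars) by log2 covered length, Klf4 over empty vector, with the 10 granule genes as lines; dashed lines mark 1.5-fold, and the end bars hold values beyond 2. All 10 lines lie between the dashed lines, and the bars are centred to the right of 0, at a median of 0.28.

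The widths of matched peaks were compared next. Of 71 pairs in which 1 peak of a list met 1 of the other, 47 (66.2%, interval 54.6 to 76.1%) were narrower with Klf4 and 24 wider, where 51.2% of 62267 such pairs over all protein-coding windows were narrower. The median log2 width ratio was −0.07 for the members and −0.01 over all windows. Without Pcsk2, 31 of 49 pairs (63.3%, interval 49.3 to 75.3%) were narrower, and this interval includes 51.2%. All 5 pairs at Chgb and 7 of 8 at Scg3 were narrower, whereas 6 of 10 at Chga were wider.

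The hormone genes Ins1, Ins2 and Iapp had 11 empty vector peaks, all matched. A count of 0 of 11 allows a lost share of up to 27.3% by the same limit of 3 counts, and so includes the 17.6% of all windows. Of their 16 Klf4 peaks 5 were gained (31.3%, interval 14.2 to 55.6%, with 36.6% over all windows), 4 of them at Ins2. Ins1 and Ins2 both encode insulin and are close copies of each other. Reads from their shared stretches may be placed at either gene, and how the authors treated such reads is not given in the sources used here.

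Ins1 (chr19:52264297-52265015) had 2 peaks in both lists and no other coding gene in its window. Its start lay under a peak at chr19:52263907-52265099 with the empty vector (1193 bp, fold enrichment 6.31 over local background, −log10 q 81.8). With Klf4 the peak reached from chr19:52263918 to chr19:52265647 (1730 bp, fold 6.40, −log10 q 61.4). The far end of the peak lay 84 bp past the gene with the empty vector and 632 bp past it with Klf4. The other peak stood 11.9 kb upstream of the start with the empty vector (652 bp, fold 8.79) and 11.8 kb upstream with Klf4 (622 bp, fold 8.59). Covered length was 1845 bp (empty vector) and 2352 bp (Klf4), a log2 ratio of 0.28, all of it from the wider start peak. That ratio stood in the middle of all genes, with 50.6% of them lower.

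Ins2 (chr7:142678656-142679726) had 3 empty vector peaks and 7 Klf4 peaks, covering 4406 and 6044 bp (log2 ratio 0.42). The peak over the gene was nearly the same in both lists, 1660 bp with the empty vector (fold 4.40, −log10 q 62.2) and 1696 bp with Klf4 (fold 4.22, −log10 q 44.2), and reached 699 and 730 bp past the higher end of the gene. All 4 gained peaks lay on the lower side, toward and within Igf2, which encodes an insulin-like growth factor. They stood 6254, 10105, 13717 and 23561 bp from the gene. The farthest, chr7:142654538-142655095 inside Igf2, was the strongest gained peak of all 10 windows (558 bp, fold 2.98, −log10 q 12.9). With 50 kb on both sides the covered lengths were 5055 and 9946 bp (log2 ratio 0.91), the single member past 1.5-fold under that setting. With 10 kb they were 2167 and 2370 bp (0.11), so the difference at Ins2 came from its surroundings rather than from the peak over the gene.

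Iapp (chr6:142298425-142303820) encodes islet amyloid polypeptide, which is stored and released with insulin, and lies within the annotated span of Slco1a5, an organic anion transporter gene. The strongest peak of all 10 windows, in both lists, stood in its window 8.75 kb upstream of the start (chr6:142289192-142290164 with the empty vector). It had a −log10 q of 198 in the empty vector list, within the top 1.33% of it, and of 155 in the Klf4 list, within the top 1.09%. The next strongest of the Iapp window, 16.3 kb upstream (chr6:142281589-142282576), had values of 172 and 131. The start peak was weaker, at 65.4 and 57.4. All 6 empty vector peaks were matched, and 1 Klf4 peak of 263 bp was gained (−log10 q 3.00). Covered length was 7294 and 7516 bp (log2 ratio 0.04), and with peaks of −log10 q of at least 5 alone the ratio was −0.17. A matched Klf4 peak at 4.78 fell just under that limit, while its empty vector partner at 5.42 stayed. The −0.17 is therefore no measure of shorter coverage.

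The granin genes Chga, Chgb, Scg2 and Scg3 had 34 empty vector peaks, of which 4 were lost (11.8%, interval 4.67 to 26.6%), and 38 Klf4 peaks, of which 9 were gained (23.7%, interval 13.0 to 39.2%). Both intervals include the shares over all windows, 17.6% and 36.6%. Of the gained peaks 5 were at Chga. The covered length was longer with Klf4 at Chga and shorter at the other 3.

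Chga (chr12:102554941-102565027) encodes chromogranin A, a major soluble protein of the granule. It had the densest window of the members: 11 empty vector and 15 Klf4 peaks covered 8154 and 10661 bp (log2 ratio 0.37), or 13.6% and 17.7% of the window, where the medians of all coding genes were 4.37% and 5.54%. Its start peak was wide and shallow, 1940 bp with a fold enrichment of 2.31 with the empty vector and 2354 bp with 2.32 with Klf4. The strongest peak stood 22.3 kb upstream (chr12:102532208-102532988 with the empty vector), with −log10 q of 134 and 112 in the lists. Of the 5 gained peaks, 1 was in the gene body (chr12:102557393-102557674, −log10 q 9.14) and 2 were at or near the end of Itpk1, an inositol phosphate kinase gene, the wider one 1250 bp (−log10 q 5.75). The single lost peak, 201 bp wide, lay within Itpk1. Counting peaks of −log10 q 20 or more alone, the lengths were 3309 and 2792 bp and the ratio was −0.21. With the top 20000 peaks of each list it was −0.44. At 20, a 703 bp Klf4 peak (−log10 q 18.1) fell out while its 521 bp empty vector partner (23.8) stayed. In the top 20000, an 868 bp Klf4 peak fell out while its 694 bp partner stayed. Neither ratio is therefore a measure of shorter coverage.

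Chgb (chr2:132781642-132795079) encodes chromogranin B. It had the strongest start peak of the members, at chr2:132781166-132782154 with the empty vector (989 bp, fold 7.76, −log10 q 170) and at chr2:132781168-132782119 with Klf4 (952 bp, fold 8.13, −log10 q 151). All 5 empty vector peaks were matched and 1 Klf4 peak of 208 bp was gained, with a −log10 q of 1.45. Covered length was 3057 and 2860 bp (log2 ratio −0.08), and with windows of 10 kb the ratio was 0.12. A second strong matched peak, 34.4 kb downstream of the start, lay over the adjoining ends of Trmt6 and Mcm8, and cannot be assigned to Chgb.

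Scg2 (chr1:79434366-79440026) encodes secretogranin II. Its start peak was 761 bp with the empty vector (fold 7.72, −log10 q 53.0) and 636 bp with Klf4 (fold 8.45, −log10 q 42.2). No Klf4 peak was gained and 1 empty vector peak, 5.75 kb upstream, was lost (−log10 q 1.80). Covered length was 3698 and 2924 bp (log2 ratio −0.29). The largest part of that difference was 1 matched peak 17749 bp beyond the gene with the empty vector, which was 1072 bp wide there and 238 bp with Klf4. Just past the gene's lower end, empty vector peaks of 228 and 446 bp were 1 Klf4 peak of 1423 bp. With a limit of 5 on −log10 q in both lists the lengths were 2071 and 859 bp (−0.92). Matched Klf4 peaks at 4.65 and 4.86 fell just under that limit and their empty vector partners at 6.28 and 6.05 did not, so this value is no measure of shorter coverage. The ratio was 0.04 with windows of 10 kb and 0.13 with peaks of at least 500 bp.

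Scg3 (chr9:75643366-75685959) encodes secretogranin III, which binds chromogranin A and the granule membrane. Its start peak had −log10 q of 97.6 and 97.4 in the lists, and 3 further peaks lay in the gene body 15.02, 17.4 and 29.4 kb downstream of the start in both. The last (chr9:75654103-75655134 with the empty vector) was the strongest of the window with the empty vector, at 110, and had 73.8 with Klf4. Lost peaks numbered 2, with −log10 q of 1.10 and 1.52, and gained peaks 3, of at most 3.33. Covered length was 8205 and 7341 bp (log2 ratio −0.15), and 0.05 with peaks of −log10 q of at least 20. At that limit a 492 bp Klf4 peak (21.0) stayed while its 711 bp empty vector partner (12.9) fell out. The 0.05 is therefore no measure of longer coverage.

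Scg5, Pcsk1 and Pcsk2 form the processing group. Their 53 empty vector peaks included 16 lost ones (30.2%, interval 19.5 to 43.5%), and their 48 Klf4 peaks included 12 gained ones (25%, interval 14.9 to 38.8%). The shares over all windows were 17.6% and 36.6%, the first below the lost interval and the second inside the gained one. Of the 16 lost peaks 12 were at Pcsk2. Of the 23 empty vector peaks of the group with a −log10 q of 5 or more, 2 were lost (8.70%, interval 2.42 to 26.8%), where 4.76% were lost over all windows.

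Scg5 (chr2:113776313-113829091) encodes 7B2, the chaperone and inhibitor of PC2. Both lists had 11 peaks, 9 of them matched, covering 8937 and 9111 bp (log2 ratio 0.03, and −0.22 with the top 20000 peaks of each list). In the top 20000, a 593 bp empty vector peak stayed while its 806 bp Klf4 partner fell out. The −0.22 is therefore no measure of shorter coverage. The start peak was 1354 bp with the empty vector (fold 5.17, −log10 q 43.5) and 1307 bp with Klf4 (fold 5.25, −log10 q 41.2). The strongest lost peak of all 10 windows was here, in the gene body 13.1 kb downstream of the start (chr2:113815897-113816064, 168 bp, −log10 q 7.82). The strongest peak of the window lay at the far end of the neighbouring Arhgap11a, 19.7 kb upstream with the empty vector.

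Pcsk1 (chr13:75089420-75134861) had the sparsest window: 3 peaks in both lists covered 2.17% of it with the empty vector and 2.52% with Klf4. Only 1 peak was matched, the start peak, 1555 bp with the empty vector (fold 5.92, −log10 q 39.3) and 1656 bp with Klf4 (fold 6.22, −log10 q 38.9). The other 2 peaks of each list were at different places, with −log10 q of 6.25 and 2.17 for the lost and 3.31 and 2.81 for the gained ones. Covered length was 2075 and 2401 bp (log2 ratio 0.17), but −0.15 in the gene body alone or with 10 kb.

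Pcsk2 (chr2:143546133-143816284) spans 270152 bp and had 39 empty vector and 34 Klf4 peaks, covering 26217 and 19925 bp. Its log2 ratio of −0.39 was the lowest of the members, and 3.87% of all genes were lower. The 12 lost peaks (5818 bp) had −log10 q of at most 3.56, and the 8 gained peaks (2014 bp) of at most 8.67. The matched peaks accounted for 20399 bp (empty vector) and 17911 bp (Klf4), and 16 of 22 pairs were narrower with Klf4. Without peaks below a −log10 q of 5, the lengths were 8859 and 9945 bp (log2 ratio 0.16), at 20 the ratio was 0.12, and with the top 20000 peaks of each list 0.51. Partners dropped out here too. At 5, a 1676 bp empty vector peak (−log10 q 2.89) fell out and its 835 bp Klf4 partner stayed. Empty vector peaks of 888 and 320 bp stayed without their Klf4 partners. In the top 20000, the 619 bp empty vector peak near the start fell out and the 3008 bp Klf4 peak over it stayed. The ratios at 5 and with the top 20000 are thus no measure of longer coverage.

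At the start of Pcsk2, empty vector peaks of 1368 and 619 bp (chr2:143545171-143546538 and chr2:143547543-143548161) were 1 Klf4 peak of 3008 bp, chr2:143545154-143548161. The gap between them, 1004 bp, was thus part of a peak in the Klf4 list alone. The strongest peak of the window was in the gene body 121 kb downstream of the start (chr2:143666519-143667395 with the empty vector), with −log10 q of 139 and 105. A matched peak at 111 kb had 36.9 and 45.8.

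A list of 20 further granule genes was measured in the same way. Their median log2 ratio was 0.22, with 15 above 0 and 5 below, against the 0.28 of all genes. Of their 251 empty vector peaks 43 were lost (17.1%, interval 13.0 to 22.3%), and of their 296 Klf4 peaks 87 were gained (29.4%, interval 24.5 to 34.8%), where the shares over all windows were 17.6% and 36.6%. Only 2 genes were at least 1.5-fold longer with Klf4: Slc18a2, the vesicular monoamine transporter (1411 bp with empty vector, 4519 bp with Klf4, log2 ratio 1.39), and Ccdc186, a gene needed for granule maturation (2263 and 4388 bp, 0.82). None was 1.5-fold shorter. Over all genes 26.1% were 1.5-fold longer and 1.73% shorter. By the same limit for a count of 0, the 20 genes are too few to set their lack of shorter ones apart from 1.73%. The lowest were Scgn, a calcium sensor (8716 and 5924 bp, −0.52), and Pam, the peptide amidating enzyme (15425 and 10945 bp, −0.48), whose empty vector peaks included 10 of 28 lost.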

How the data were processed

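The samples were 8 ATAC-seq libraries, 4 per plasmid, grouped by the labels. The labels name an ATAC-seq kit and also an mRNA-seq library preparation kit, and which of them made these libraries is not given in the sources used here. Per the submitters' processing notes, Bowtie2, MACS2, DiffBind and FastQC were used on mm10; versions, options and read filters are not given in the sources used here. The authors deposited 1 broadPeak list per plasmid, named as merged; whether libraries were pooled before calling is not given in the sources used here. Each peak has a fold enrichment (a ratio), a −log10 p-value, a −log10 q-value and a score derived from the q-value, as the authors deposited them. The lowest −log10 q was 1.02 and 1.00.

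Peaks off chromosomes 1 to 19, X and Y were left out. Windows were GRCm38.p6 gene bodies (RefSeq) with 25 kb on both sides. A peak was matched when a peak of the other list overlapped it by at least 1 bp, and otherwise lost (empty vector) or gained (Klf4). Covered length counted bases inside the window. Intervals are 95% Wilson intervals; for a count of 0 the limit is 3 counts of the total. Motifs were searched on both strands. With 1 list per group no test was run. All 10 members are named; of the other granule genes, those past 1.5-fold and the 2 highest and 2 lowest are named, as are neighbouring genes that share a window. Members, lists and some limits were chosen with earlier results of these data known. Alternatives varied strength, width, windows, overlap, neighbours and the length added. Matching and coverage were tested on simulated data. Tools were Python 3.11.15 with matplotlib 3.10.9, scipy 1.17.1, pandas 2.3.3 and numpy 2.4.6.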

Additional observations from a re-analysis of the deposited data

How the results depend on the processing

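No paired analysis was possible because each plasmid has a single merged list and no library has values of its own. Replicates could not be left out in turn either. Of 70 summary values under alternatives, 46 stayed within the main value's interval, within 0.1 on the log2 scale or within 1.5 times a count, and 24 moved. For the lost and gained shares, peaks past a limit on strength or width were matched against the whole other list. For covered lengths both lists were limited.

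The lost share was 5.17% (3 of 58 peaks) and the gained share 12.3% (7 of 57) at a −log10 q of at least 5. Both were 0% at 20 (0 of 33 and 0 of 31, which allow up to 9.09% and 9.68%; 0.124% and 6.75% over all windows) and 0% with the top 20000 peaks of each list (0 of 27 and 0 of 25, which allow up to 11.1% and 12%; 0.023% and 2.88% over all windows). With peaks of at least 500 bp they were 8.33% of 60 and 10.7% of 56 (4.68% and 22.5% over all windows). With 50% of both peaks overlapping they were 33.7% and 36.3% (31.7% and 47.5% over all windows). In the gene bodies alone there were 58 and 54 peaks. Without Pcsk2, added after seeing the data, there were 59 empty vector peaks and 13.6% were lost. The members at least 1.5-fold longer numbered 1 in place of 0 with windows of 50 kb (Ins2), and those 1.5-fold shorter 1 in place of 0 at a −log10 q of at least 5 (Scg2, where 2 Klf4 partners of retained empty vector peaks fell just under the limit). The median log2 ratio stayed within −0.03 and 0.11, was under 0 in 3 settings (strength limits of 5 and of the top 20000 peaks, and gene bodies alone), and lay below that of all genes except at 20, where the medians were 0.02 and 0.01. Of 90 ratios of single members 17 had the opposite sign, at 8 of the 10 genes, all but Ins1 and Ins2; none of these was past 1.5-fold in the main setting. Depth is unknown and limits what weak peaks can show.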
